A study of Rattus norvegicus with 23 samples.

Results

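The motors that carry cargo along microtubules were examined in hippocampal tissue of young and aged rats: the kinesins with their light chains, cytoplasmic dynein, dynactin, and the TRAK adaptors of mitochondria. Members were all probe sets of the array that the platform's annotation gave a single gene symbol beginning with Kif, Klc, Dync, Dynl or Dctn, or the symbols Trak1 and Trak2, with Kif5c left out. The rule itself reads gene names. It gave 89 probe sets of 57 genes, out of 31042 probe sets that were not array controls and 14217 genes named alone by a probe set. Of the 57 genes, 34 were kinesin genes with 62 probe sets, 21 were dynein and dynactin genes with 24, and 2 were Trak genes with 3.

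RNA came from the microdissected CA3 field of the hippocampus, the field of pyramidal neurons that receives the mossy fibres, with 1 array for each of 23 male Long-Evans rats. The aged impaired group held 8 rats of 24 to 26 months whose learning index in the Morris water maze, a test of spatial memory, was worse than that of young rats. The aged unimpaired group held 6 rats of the same age whose index fell within the range of the young. The young group held 9 rats of 6 months, and no rat of any group received a treatment. Behaviour, and not a measure on the tissue, separated the aged groups, and the labels number the animals as biological replicates.

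Kinesins walk along microtubules, mostly toward the plus end, which in an axon lies away from the cell body, and cytoplasmic dynein walks toward the minus end with the help of the dynactin complex. A neuron depends on both, because most of its proteins and organelles are made in the cell body and must travel along axons and dendrites, and worn organelles must travel back. Kinesin-1 and dynein are coupled to mitochondria by TRAK adaptors, kinesin-2 carries cargo in axons and drives transport in cilia, and kinesin-3 carries synaptic vesicle precursors and dense-core vesicles.

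Values are deposited GCRMA expression values on the log2 scale, where 1 unit is a 2-fold change. A probe set was tested if it reached a log2 value of 4, a level above the floor of the scale, on at least 6 arrays, and this left 56 member probe sets of 40 genes. Array medians ran from 3.43 to 3.46 in aged impaired rats, 3.41 to 3.43 in aged unimpaired rats and 3.39 to 3.42 in young rats, so every aged impaired array lay above every young one, and no array copied another. Differences between group means were tested with limma over all 14647 probe sets that passed the same filter, and a probe set was called changed at a Benjamini-Hochberg adjusted p of at most 0.05. A difference is always the first-named group minus the second, and its error is the standard error (SE) from limma.

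The remaining 33 member probe sets did not pass the filter and have no test. All 13 probe sets of the spindle kinesins of dividing cells were among them, those of Kif2c, Kif11, Kif15, Kif18a, Kif18b, Kif20a, Kif20b, Kif22, Kif23 and Kifc1. Of 8 markers of dividing cells, 6 also lay below a log2 value of 4 (Birc5, Ccnb1, Cdk1, Mcm2, Mki67 and Top2a). The other 2, Aurkb and Pcna, lay at or above it. Of the other members, Kif1b, Kif6, Kif7, Kif12, Kif14, Klc3 and Dynlt5 had no tested probe set. Single probe sets of Dync1li1, Klc1, Kif26b, Kif3b, Kif1a and Dctn6, 2 of Kif13a and 4 of Kif16b also fell short while another probe set of the gene was tested. The highest value that any of the 33 reached on any array was 4.03, for a Kif13a probe set. Nothing is said here about the level of the genes with no tested probe set.

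For 7 genes called against young rats both in aged impaired and in aged rats as a whole, the 250 bases before the transcript start are shown. Both comparisons share the aged impaired and the young rats. Sequences are from RefSeq on the rat assembly GRCr8, each 5′ to 3′ on the strand of its gene. Capitals mark matches, on either strand, to the GC box with the letters GGGCGG. They also mark the CCAAT box, searched as the letters of its name, and the cAMP response element TGACGTCA. Neighbouring GC boxes may overlap and then run together.
Kif2a (chr2:40164781-40165030, minus strand): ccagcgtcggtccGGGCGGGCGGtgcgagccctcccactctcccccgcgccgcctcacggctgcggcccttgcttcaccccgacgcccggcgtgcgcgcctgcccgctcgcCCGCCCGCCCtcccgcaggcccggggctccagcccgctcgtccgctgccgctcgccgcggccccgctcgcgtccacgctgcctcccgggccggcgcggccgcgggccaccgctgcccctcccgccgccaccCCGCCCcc
Kif3b (chr3:162218438-162218687, plus strand): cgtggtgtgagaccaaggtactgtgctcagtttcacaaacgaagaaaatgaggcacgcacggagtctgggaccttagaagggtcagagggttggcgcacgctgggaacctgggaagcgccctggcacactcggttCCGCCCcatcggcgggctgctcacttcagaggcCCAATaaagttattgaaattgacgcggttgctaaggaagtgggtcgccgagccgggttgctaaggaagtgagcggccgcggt
Dync1i1 (chr4:34819191-34819440, plus strand): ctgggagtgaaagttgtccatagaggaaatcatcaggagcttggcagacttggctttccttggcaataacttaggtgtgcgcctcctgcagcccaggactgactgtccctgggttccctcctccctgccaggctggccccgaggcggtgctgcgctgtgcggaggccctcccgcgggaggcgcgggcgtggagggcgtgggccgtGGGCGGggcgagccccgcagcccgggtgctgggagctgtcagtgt
Dync1h1 (chr6:135436228-135436477, plus strand): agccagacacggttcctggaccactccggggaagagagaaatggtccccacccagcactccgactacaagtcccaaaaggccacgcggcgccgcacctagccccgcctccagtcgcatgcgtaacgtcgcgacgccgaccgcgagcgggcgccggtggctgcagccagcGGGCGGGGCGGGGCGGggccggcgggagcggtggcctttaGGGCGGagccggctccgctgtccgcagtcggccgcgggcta
Kif1c (chr10:55912843-55913092, plus strand): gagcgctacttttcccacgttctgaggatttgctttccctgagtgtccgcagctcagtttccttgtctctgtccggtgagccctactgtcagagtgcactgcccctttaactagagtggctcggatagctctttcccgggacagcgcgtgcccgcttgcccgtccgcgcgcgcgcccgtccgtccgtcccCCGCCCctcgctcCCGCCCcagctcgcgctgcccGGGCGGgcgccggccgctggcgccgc
Kifap3 (chr13:78671051-78671300, plus strand): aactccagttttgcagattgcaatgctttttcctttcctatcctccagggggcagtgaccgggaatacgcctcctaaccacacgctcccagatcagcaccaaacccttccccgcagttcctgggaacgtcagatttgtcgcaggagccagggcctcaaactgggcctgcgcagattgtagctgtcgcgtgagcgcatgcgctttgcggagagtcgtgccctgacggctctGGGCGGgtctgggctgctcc
Kif5b (chr17:56185136-56185385, plus strand): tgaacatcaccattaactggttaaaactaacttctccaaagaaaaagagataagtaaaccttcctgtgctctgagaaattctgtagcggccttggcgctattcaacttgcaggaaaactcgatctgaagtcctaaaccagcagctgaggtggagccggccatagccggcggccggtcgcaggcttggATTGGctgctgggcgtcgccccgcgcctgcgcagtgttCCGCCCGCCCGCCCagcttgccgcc
GC boxes were the most frequent of these matches. They numbered 5 in Kif2a, 4 in Dync1h1, 3 each in Kif1c and Kif5b, and 1 each in Kif3b, Dync1i1 and Kifap3. A CCAAT box stood in Kif3b and in Kif5b and no cAMP response element in any of the 7. Over all 33469 promoters of the same length in the table, 30.5% held a GC box, 34.0% a CCAAT box and 1.59% a cAMP response element. Among the 50 promoters of the 47 member genes that had one, 60% held a GC box, 38% a CCAAT box and 8% a cAMP response element. A match is a description of the letters in this window.

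In aged impaired against young rats, 2 of 5 tested dynein-1 and 2 of 8 tested kinesin-2 probe sets fell. So did 2 probe sets of the depolymerising kinesin Kif2a and the mitochondrial adaptor Trak1. Kif1c rose, as did 1 probe set each of Kif1a, Kif5b and Trak2. Other tested probe sets of Kif2a, Kifap3, Kif1a, Kif5b and Trak2 were not called. In all, 11 of the 56 tested member probe sets were called (19.6%), 4 higher and 7 lower, beside 9.76% called over all probe sets tested (3.88% higher and 5.88% lower). Of all probe sets called, 39.7% were higher, a share that became 50% when each array was centred on its median, and the members then split into 5 higher and 7 lower. The median difference of the members was -0.00, beside -0.02 over all probe sets tested, so the calls ran in both directions around a centre near 0. Changes were small, the largest fold among the called members being 1.48.

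**Figure D1:**
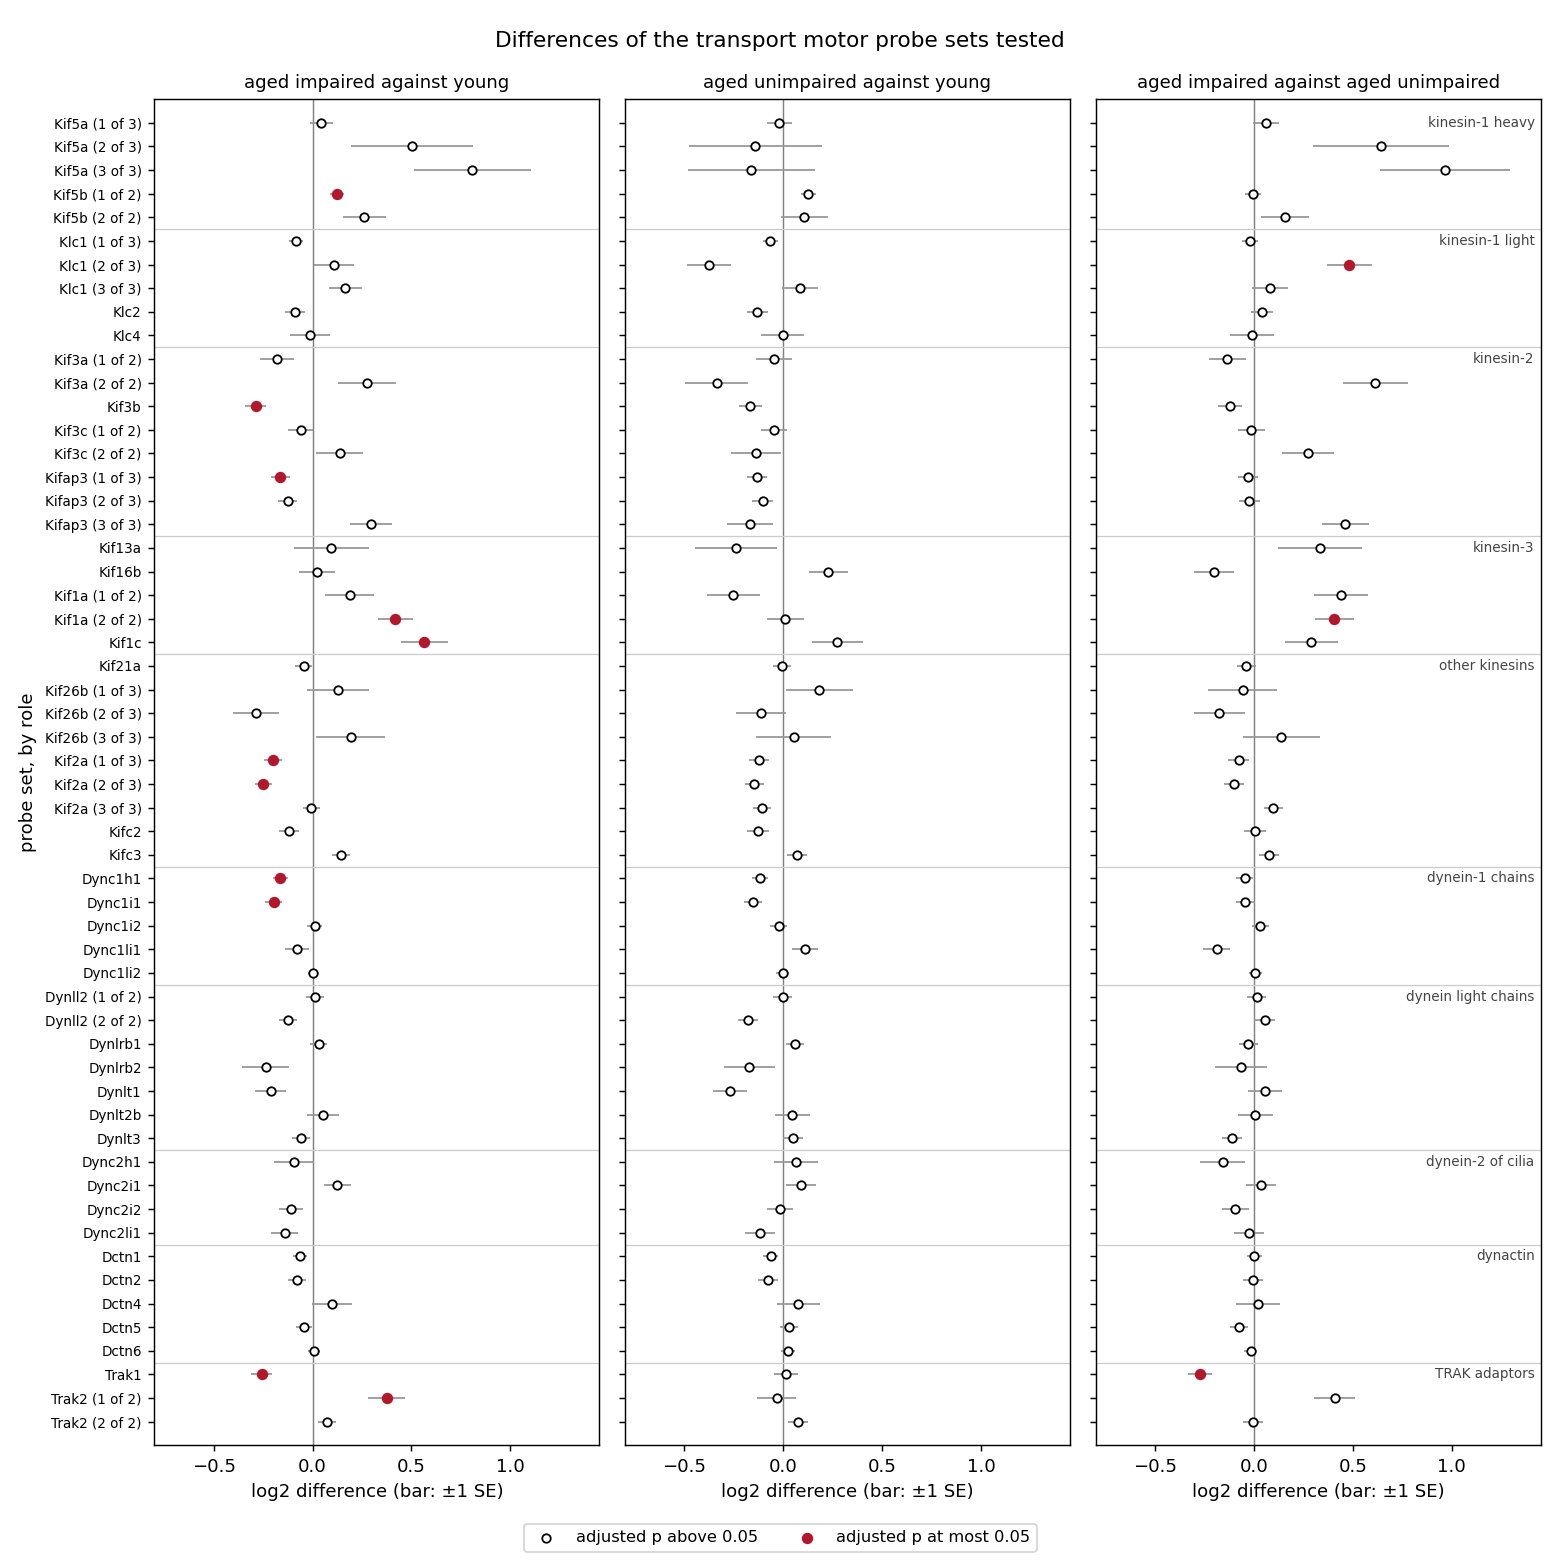
Log2 difference (horizontal axis, with a bar of ±1 SE) of each of the 56 tested member probe sets in 3 comparisons, grouped by role from kinesin-1 at the top to the TRAK adaptors at the bottom; several probe sets of 1 gene are numbered in the order of their identifiers. Filled points are called: 11 in aged impaired against young, 0 in aged unimpaired against young and 3 in aged impaired against aged unimpaired.

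Dynein-1 is the motor of retrograde transport. Dync1h1, its heavy chain, which holds the ATPase motor, had a lowest, median and highest log2 value of 10.88, 10.95 and 11.12 in aged impaired rats, 10.96, 11.03 and 11.07 in aged unimpaired rats, and 11.03, 11.14 and 11.24 in young rats. The median was lowest in aged impaired and highest in young rats, and 6 of 8 aged impaired rats lay below every young rat. The heavy chain fell by 0.16 ± 0.04 (SE; 1.12-fold, adjusted p = 0.0101, limma). Dync1i1, the intermediate chain that is enriched in neurons and binds dynactin, lay at 10.89, 11.01 and 11.23 in aged impaired rats, at 11.02, 11.07 and 11.21 in aged unimpaired rats, and at 11.14, 11.24 and 11.31 in young rats. Most aged rats of both groups sat under the young range, within which lay 2 aged impaired rats and 1 aged unimpaired rat. The intermediate chain fell by 0.20 ± 0.04 in aged impaired rats (1.15-fold, adjusted p = 0.00794, limma), with 6 of 8 below every young rat.

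The other dynein-1 chains were not called. Dync1i2, the more widely expressed intermediate chain, differed by 0.01 between aged impaired and young rats, the light intermediate chain Dync1li1 by -0.08 and Dync1li2 by 0.00. Dync1li2 was the brightest probe set of the motor chains, with a mean log2 value of 11.78 over all arrays. The light chains, which bind the intermediate chains and serve other complexes too, gave 7 tested probe sets of 6 genes. None of these was called in aged impaired against young rats, and their differences ran between -0.24 and 0.05. The brightest of them was a Dynll2 probe set with a mean of 12.23.

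With both aged groups averaged against young rats, 2 light chains passed. The Dynll2 probe set 1387782_at lay at 8.37, 8.49 and 8.75 in aged impaired rats, at 8.37, 8.48 and 8.52 in aged unimpaired rats, and at 8.52, 8.61 and 8.80 in young rats. Every aged unimpaired rat was below every young rat, and 5 of 8 aged impaired rats were. The mean of the aged groups fell by 0.15 ± 0.04 (1.11-fold, adjusted p = 0.0298, limma), while the brighter Dynll2 probe set, 1372612_at, was not called. Dynlt1, a light chain of the Tctex type, lay at 6.69, 7.26 and 7.42 in aged impaired rats, at 6.92, 7.21 and 7.26 in aged unimpaired rats, and at 7.26, 7.38 and 7.56 in young rats. Its aged mean fell by 0.24 ± 0.07 (1.18-fold, adjusted p = 0.0376, limma). Of the 23 arrays, 8 shared the value 7.26 for this probe set to 3 decimals, and the gene table holds 2 pseudogenes named after Dynlt1, so its level is uncertain. Leaving out 1 rat at a time, Dynll2 passed in 20 and Dynlt1 in 15 of 23 limma fits.

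Dynactin links dynein to cargo and keeps it on the microtubule, and its subunits with Dctn names showed no call. The 5 tested, Dctn1, Dctn2, Dctn4, Dctn5 and Dctn6, differed by -0.08 to 0.10 between aged impaired and young rats and by -0.08 to 0.08 between aged unimpaired and young rats. Dctn1, which encodes the p150 subunit that grips the microtubule, was the brightest with a mean of 11.35. Dynein-2, the motor of retrograde transport in cilia, gave 4 tested members, Dync2h1, Dync2i1, Dync2i2 and Dync2li1, with differences of -0.14 to 0.13 and no call. Dync2li1 was the brightest of these with a mean of 7.37.

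Among the kinesins, the lowest adjusted p-values were those of Kif2a, a kinesin that takes microtubules apart at their ends and prunes axon branches, and of the kinesin-2 subunit Kif3b. The Kif2a probe set 1383156_at lay at 8.98, 9.22 and 9.28 in aged impaired rats, at 9.20, 9.31 and 9.40 in aged unimpaired rats, and at 9.32, 9.46 and 9.60 in young rats. No aged impaired rat reached the young range. This probe set fell by 0.25 ± 0.04 (1.19-fold, adjusted p = 0.00188, limma). The Kif2a probe set 1371125_at also fell, by 0.20 ± 0.05 (1.15-fold, adjusted p = 0.0114, limma), with values of 8.11, 8.29 and 8.43 in aged impaired rats, 8.23, 8.33 and 8.45 in aged unimpaired rats, and 8.24, 8.47 and 8.53 in young rats. Here the ranges overlapped through 1 low young rat, and 3 of 8 aged impaired rats lay below all the young. A probe set of the same gene, 1392532_at, differed by only -0.01 ± 0.04 and was not called (adjusted p = 0.931, limma), so the probe sets of Kif2a disagreed.

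Kinesin-2 is a heterotrimer of a pair of motor subunits, such as Kif3a with Kif3b, and the cargo-binding subunit Kifap3. Kif3b lay at 8.17, 8.30 and 8.44 in aged impaired rats, at 8.37, 8.39 and 8.57 in aged unimpaired rats, and at 8.44, 8.56 and 8.80 in young rats. The aged impaired rats were lowest, with 7 of 8 below every young rat and the eighth close to the young minimum. Kif3b fell by 0.29 ± 0.05 (1.22-fold, adjusted p = 0.00222, limma). The Kifap3 probe set 1374462_at fell by 0.16 ± 0.05 (1.12-fold, adjusted p = 0.0297, limma), with values of 10.12, 10.21 and 10.50 in aged impaired rats, 10.19, 10.27 and 10.37 in aged unimpaired rats, and 10.24, 10.40 and 10.48 in young rats. One aged impaired rat exceeded every young rat, and 5 of 8 lay below them all. The Kifap3 call passed in 16 of 23 limma fits that each left out 1 rat and was lost, with an adjusted p of up to 0.0590, without aged impaired rat 2, 6, 7 or 8 or young rat 3, 7 or 8. Of the other Kifap3 probe sets, 1389556_at, the brightest of the kinesin-2 group with a mean of 11.24, differed by -0.13 (adjusted p = 0.0970, limma), and 1391618_at differed by 0.30 in the opposite direction (adjusted p = 0.0779, limma). The tested probe sets of Kif3a and Kif3c were not called in aged impaired against young rats, and within each gene they differed in sign, at -0.18 and 0.28 for Kif3a and at -0.06 and 0.14 for Kif3c.

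Of 5 tested kinesin-3 probe sets, 2 were called in aged impaired against young rats, both higher. Kif1c, a vesicle motor that is not confined to neurons, was the brightest of this group with a mean of 8.90, and lay at 8.84, 9.21 and 9.57 in aged impaired rats, at 8.53, 8.94 and 9.12 in aged unimpaired rats, and at 8.30, 8.63 and 9.25 in young rats. The median was highest in aged impaired and lowest in young rats, but the groups overlapped. Kif1c rose by 0.57 ± 0.12 in aged impaired rats (1.48-fold, adjusted p = 0.00563, limma), and the gene table holds 1 pseudogene named after it, so that its level is uncertain. The same limit holds for Dctn5, Dynlt2b and Kif13a, which also have pseudogenes named after them. Whether a probe set of any member reads a pseudogene was not tested. Kif1a, the neuronal carrier of synaptic vesicle precursors, lay at 6.63, 6.94 and 7.33 in aged impaired rats on probe set 1384133_at, at 6.43, 6.57 and 6.79 in aged unimpaired rats, and at 6.36, 6.63 and 6.63 in young rats. On this probe set 7 of 8 aged impaired rats lay above every young rat, but 9 arrays shared the value 6.63 to 3 decimals. Kif1a rose by 0.42 ± 0.09 on it (1.34-fold, adjusted p = 0.00555, limma). The brighter tested Kif1a probe set, 1382785_at, differed by 0.19 and was not called (adjusted p = 0.344, limma). Kif13a and Kif16b, which move endosomes, differed by 0.09 and 0.02 on their tested probe sets. That of Kif16b sat at the level of the filter, with a mean of 4.01 and a log2 value of at least 4 on only 7 arrays.

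Kinesin-1 is the workhorse of fast axonal transport. Its ubiquitous heavy chain Kif5b, on the probe set 1372444_at, the brightest of the heavy chains with a mean of 11.24, lay at 11.23, 11.29 and 11.36 in aged impaired rats, at 11.25, 11.30 and 11.32 in aged unimpaired rats, and at 10.96, 11.21 and 11.25 in young rats. Above every young rat lay 6 of 8 aged impaired and 5 of 6 aged unimpaired rats. Kif5b rose by 0.12 ± 0.04 in aged impaired rats (1.09-fold, adjusted p = 0.0316, limma), and the dimmer probe set 1378096_at differed by 0.26 in the same direction (adjusted p = 0.123, limma). The Kif5b call was lost, with an adjusted p of up to 0.0593, when aged impaired rat 2, 3 or 4 or young rat 1 or 3 was left out. The light chains, which recognise cargo, gave 5 tested probe sets of Klc1, Klc2 and Klc4 with no call and differences of -0.09 to 0.17. The brightest was the Klc1 probe set 1370886_a_at, with a mean of 12.34.

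Other kinesins of non-dividing cells, apart from Kif2a, were not called. Kif21a, a kinesin that restrains microtubule growth and the brightest of this group with a mean of 10.04, differed by -0.04. Kifc3, a minus-end kinesin, came nearest, at 0.14 with an adjusted p of 0.0513 (limma). Kifc2, a minus-end kinesin of neurons, differed by -0.12, and the 3 tested probe sets of Kif26b differed in sign, from -0.29 to 0.19.

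The TRAK adaptors, which hold kinesin-1 and dynein to the mitochondrial protein Miro, moved in opposite directions in aged impaired rats. Trak1 lay at 9.74, 9.83 and 10.05 in aged impaired rats, at 10.02, 10.10 and 10.32 in aged unimpaired rats, and at 9.93, 10.11 and 10.32 in young rats. The aged impaired rats lay at the low end, 5 of 8 of them below every young rat, and the other groups shared nearly the same range. Trak1 fell by 0.26 ± 0.05 (1.20-fold, adjusted p = 0.00588, limma). On the Trak2 probe set 1370176_at the values were 10.03, 10.24 and 10.44 in aged impaired rats, 9.47, 9.79 and 10.34 in aged unimpaired rats, and 9.61, 9.95 and 10.10 in young rats. Here 6 of 8 aged impaired rats lay above every young rat. Trak2 rose on this probe set by 0.38 ± 0.09 (1.30-fold, adjusted p = 0.0142, limma). The brighter Trak2 probe set, 1372092_at, with a mean of 10.63, differed by 0.07 and was not called (adjusted p = 0.310, limma).

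**Figure D2:**
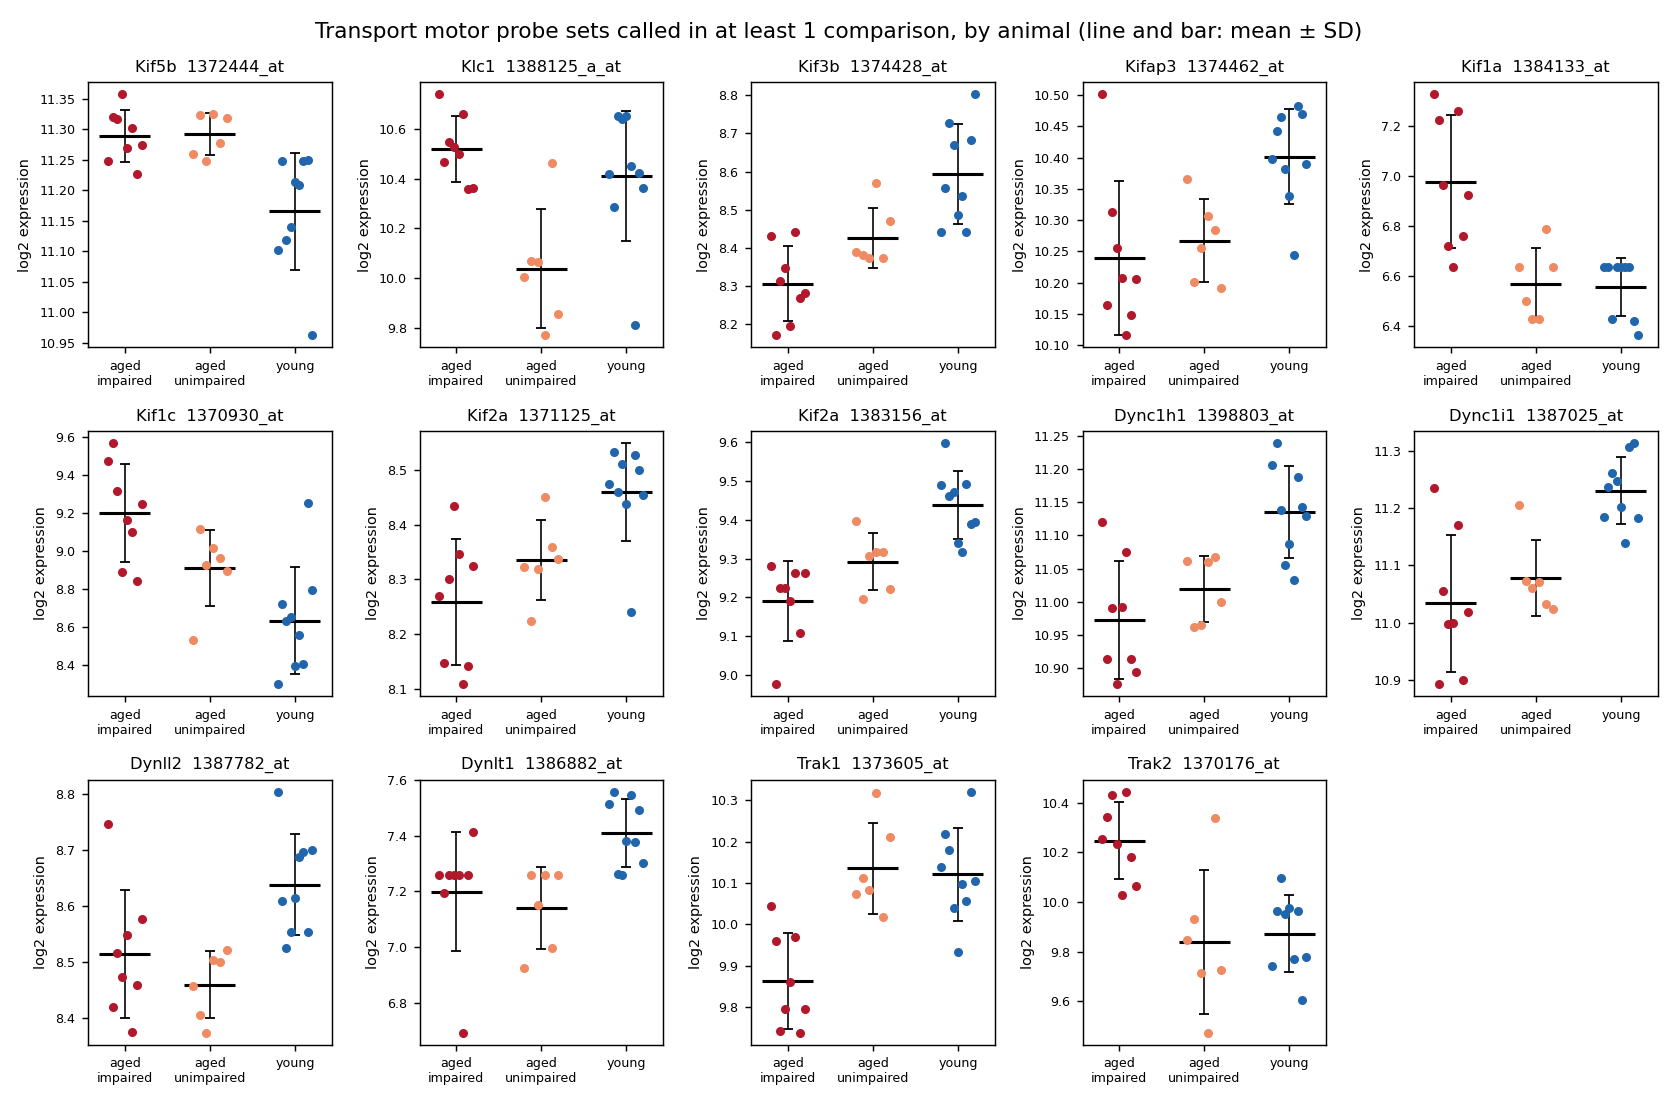
Log2 expression (vertical axis, a separate scale in each panel that does not start at 0) of the 14 member probe sets called in at least 1 of the 4 comparisons, 1 point per rat, with the group mean as a line and the SD as a bar. Kif2a 1383156_at is the panel in which no aged impaired rat reaches the young range, and in the Trak1 panel 5 of 8 aged impaired rats lie below every young rat and 7 of 8 below every aged unimpaired rat.

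Markers of cell types and fields were read beside these results, because fewer cells of a type and less RNA per cell cannot be told apart in tissue. Of 10 CA3 markers, 9 lay at or above a log2 value of 4, all but Iyd. The mean of all 10, Iyd included, ran from 8.79 to 9.19 in aged impaired rats. It ran from 8.95 to 9.13 in aged unimpaired rats and from 9.06 to 9.24 in young rats. All 10 neuronal markers were measured, with means of 11.55 to 11.71 in aged impaired rats, 11.56 to 11.75 in aged unimpaired rats, and 11.63 to 11.81 in young rats. Of 10 microglial markers, 7 lay above that level, with Cd68, Cx3cr1 and Itgam below it. The mean of all 10 ran from 6.24 to 6.79 in aged impaired rats and from 6.29 to 6.58 in aged unimpaired rats. In young rats it ran from 5.81 to 6.13, with no overlap between either aged group and the young. All 7 measured astrocyte markers passed, with means of 10.98 to 11.33 in aged impaired rats, 11.02 to 11.26 in aged unimpaired rats, and 10.78 to 11.09 in young rats. The 7 measured oligodendrocyte markers ran from 11.51 to 11.89 in aged impaired rats, 11.49 to 11.83 in aged unimpaired rats, and 11.66 to 11.96 in young rats. The 6 measured CA1 markers, Dcn below that level among them, ran from 6.34 to 7.88 in aged impaired rats, 6.58 to 7.05 in aged unimpaired rats, and 5.40 to 7.63 in young rats. Dentate markers were low, with 2 of 5 at or above 4. Of the choroid plexus and ependymal markers Aqp1, Dnah1, Folr1, Foxj1 and Kl were below it, and Ttr was at or above it. The 1 tested probe set of this list was not called. It differed by 0.03 between aged impaired and young rats and by -0.62 between aged unimpaired and young rats. Between aged impaired and aged unimpaired rats it differed by 0.65. In aged impaired against young rats, 8 of 14 tested probe sets of the CA3 markers fell and 1 rose, and 4 of 17 of the neuronal markers fell. Of the astrocyte markers 3 of 12 rose, and of the microglial markers 6 of 8. Of 13 tested oligodendrocyte probe sets, 1 rose and 1 fell. Over all probe sets tested, 9.76% were called in this comparison (3.88% higher and 5.88% lower). The part of these markers in the motor results was not tested.

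In aged unimpaired against young rats none of the 56 members was called, beside 2.06% over all probe sets tested. At an unadjusted p under 0.05 stood 16 of the 56 (28.6%), beside 16.8% over all probe sets tested, and limma with array weights called 5, so a count of 0 does not show that the motors were alike. Many of the probe sets that fell in aged impaired rats leaned the same way in the aged unimpaired rats, with smaller differences that missed the threshold: Kif3b by -0.17 ± 0.06 (adjusted p = 0.134, limma), Dync1i1 by -0.15 ± 0.05 (adjusted p = 0.0962), Kif2a 1383156_at by -0.15 ± 0.05 (adjusted p = 0.118) and Dync1h1 by -0.12 ± 0.04 (adjusted p = 0.144). Both comparisons use the same young rats, so a shared direction is no independent evidence. Trak1 differed by 0.01 ± 0.06, Trak2 1370176_at by -0.03 ± 0.10 and Kif1a 1384133_at by 0.01 ± 0.10 in aged unimpaired against young rats.

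Averaging the aged groups against young rats gave 10 of 56 members called (17.9%), 2 higher and 8 lower, beside 6.90% over all probe sets tested (3.34% higher and 3.56% lower). These were the Dynll2 and Dynlt1 probe sets above, both called Kif2a probe sets, Kif3b, Kifap3 1374462_at, Dync1h1 and Dync1i1 on the lower side, and Kif5b and Kif1c on the higher side. Kif1c rose by 0.42 ± 0.10 (1.34-fold, adjusted p = 0.0192, limma) and Kif5b by 0.13 ± 0.03 (1.09-fold, adjusted p = 0.0202, limma). Kif3b fell by 0.23 ± 0.05 (1.17-fold, adjusted p = 0.00557, limma), with 11 of 14 aged rats below every young rat. Dync1i1 fell by 0.17 ± 0.04 (1.13-fold, adjusted p = 0.00880, limma), again in 11 of 14 aged rats below every young rat. Trak1, Trak2 and Kif1a were not among the calls.

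The comparison of aged impaired with aged unimpaired rats asks which motors differ with learning at the same age. Here 3 of 56 members were called (5.36%), 2 higher and 1 lower, beside 0.778% over all probe sets tested (0.676% higher and 0.102% lower). These were Trak1, Kif1a 1384133_at and Klc1 1388125_a_at. Trak1 was lower in aged impaired rats by -0.27 ± 0.06 (1.21-fold, adjusted p = 0.0393, limma), and 7 of 8 aged impaired rats lay below every aged unimpaired rat. Kif1a was higher by 0.41 ± 0.10 (1.33-fold, adjusted p = 0.05, limma), and 5 of 8 aged impaired rats lay above every aged unimpaired rat. The Klc1 probe set lay at 10.36, 10.51 and 10.74 in aged impaired rats and at 9.77, 10.03 and 10.46 in aged unimpaired rats, beside 9.81, 10.42 and 10.65 in young rats. It was higher by 0.48 ± 0.11 in aged impaired than in aged unimpaired rats (1.40-fold, adjusted p = 0.0489, limma). Against young rats this probe set differed by 0.11 ± 0.10 in aged impaired rats (adjusted p = 0.526, limma). The aged unimpaired rats differed from the young by -0.37 ± 0.11 on it (adjusted p = 0.0829, limma), so they lay further from the young. The young range overlapped that of both aged groups, and the Klc1 probe sets 1370886_a_at and 1399126_at differed by -0.02 and 0.08. All 3 calls were lost in a fit of the aged groups alone and with no filter on low values, settings in which 0 and 2 of all probe sets were called. The cause was not tested. Leaving out 1 rat at a time gave between 0 and 6 calls, with Trak1 called in 13, Kif1a in 5 and Klc1 in 5 of 23 limma fits.

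Because the probe sets of Trak2, Klc1, Kifap3 and Kif2a disagreed, each tested probe set was set against the brightest tested probe set of its own gene, a choice made after seeing the data. The quantity is a difference of log2 values within an animal, and a change in it says that the probe sets of 1 gene changed unequally. It was fitted with limma over all 2620 such differences of 2021 genes, of which 16 belonged to 11 member genes. In aged impaired against aged unimpaired rats, 5 of the 16 were called (31.2%), all higher, beside 13.0% over all such differences (10.5% higher). Klc1 1388125_a_at ran from -1.88 to -1.71 in aged impaired rats and from -2.56 to -1.90 in aged unimpaired rats, with no overlap. The step was 0.50 ± 0.11 (adjusted p = 0.0110, limma). Kifap3 1391618_at stepped by 0.49 ± 0.12 (adjusted p = 0.0132), with values of -3.49 to -2.99 in aged impaired rats and -4.07 to -3.34 in aged unimpaired rats. Trak2 1370176_at stepped by 0.41 ± 0.11 (adjusted p = 0.0193), with values of -0.65 to -0.24 in aged impaired rats and -1.28 to -0.34 in aged unimpaired rats. In both genes the ranges overlapped through aged unimpaired rat 7, the highest of its group on these differences.

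Kif3a 1378509_at, a dim probe set that fell to a log2 value of 3.30 in 1 aged unimpaired rat, stepped by 0.75 ± 0.20 within its gene (adjusted p = 0.0201, limma). Without aged unimpaired rat 6 this call and that of Trak2 were lost, with adjusted p of 0.0588 and 0.0697. The Kif2a probe set 1392532_at stepped by 0.20 ± 0.06 (adjusted p = 0.0322, limma). This Kif2a call too was lost without aged unimpaired rat 6, and it passed in 17 of 23 limma fits that each left out 1 rat. Against young rats the same probe set stepped by 0.24 ± 0.05 (adjusted p = 0.0345, limma), passing in 21 of 23 such fits. There Kifap3 1391618_at also stepped, by 0.42 ± 0.11 (adjusted p = 0.0406, limma), but passed in only 10 of 23 such fits. These Kif2a and Kifap3 differences were the 2 members called in aged impaired against young rats, beside 2.10% over all differences (1.41% higher). No member was called in aged unimpaired against young rats (0.305% over all) or in the mean of both aged groups (0.267% over all), with 2 and 5 of the 16 at an unadjusted p under 0.05, beside 445 and 347 of the 2620. The Kif1a probe sets moved together between the aged groups, their within-gene step being -0.03.

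The within-gene differences of other genes shifted with the same groups. Over the 2604 differences that belonged to no member, each taken against its own mean over the 23 rats, the median of an array lay between -0.01 and 0.06 in aged impaired rats, between -0.05 and 0.00 in aged unimpaired rats, and between -0.06 and 0.05 in young rats. Aged unimpaired rat 6 was the lowest of its group on this array-wide median and on the Klc1, Kifap3, Trak2 and Kif3a differences. Aged unimpaired rat 7 was the highest of its group on each of these. The called Kif2a difference went otherwise, with aged unimpaired rat 1 lowest at -1.69 and rat 2 highest at -1.43. Young rat 7, the lowest young rat on Klc1 1388125_a_at, had the lowest array-wide median of all. The part of this array-wide shift in the 5 member calls, and in the call of Klc1 itself, was not tested.

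**Figure D3:**
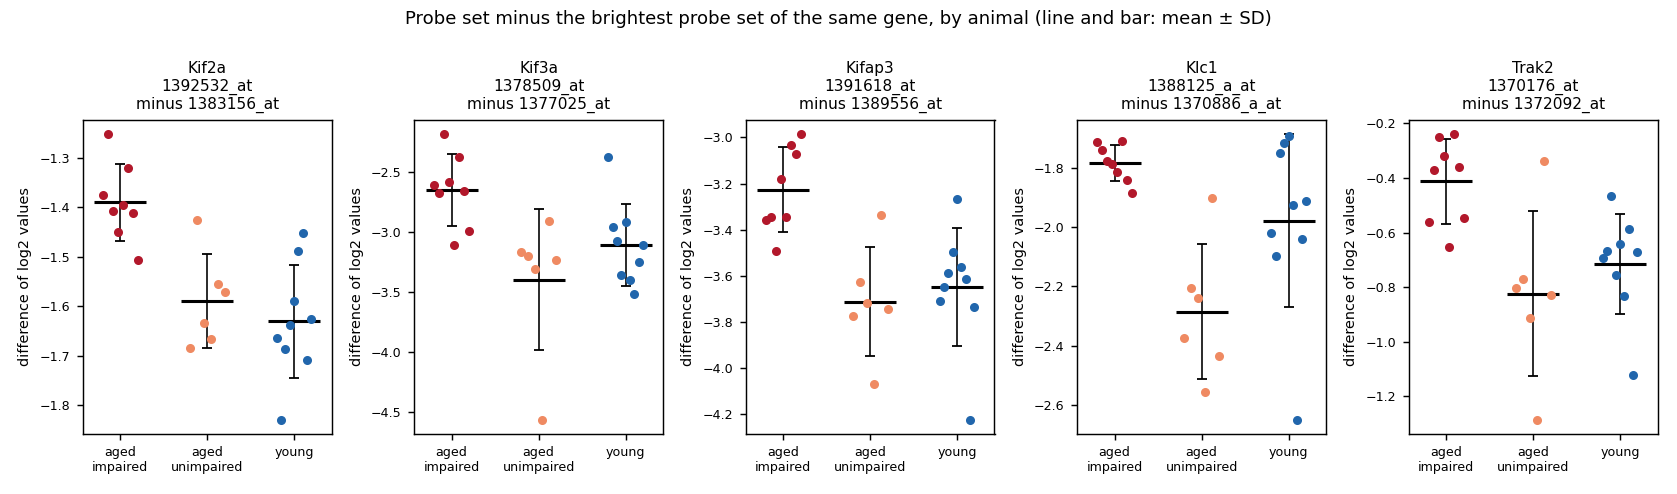
Log2 value of a probe set minus that of the brightest tested probe set of its gene (vertical axis, a separate scale in each panel), 1 point per rat, for the 5 probe sets called in aged impaired against aged unimpaired rats, with the group mean as a line and the SD as a bar. Klc1 is the panel with no overlap between the aged groups, and in the Trak2 and Kifap3 panels 1 aged unimpaired rat stands among the aged impaired rats.

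Kif5a, the kinesin-1 heavy chain of neurons, had 3 tested probe sets and no call. The brightest, 1373187_at, held between 11.01 and 11.43 over all 23 rats, and differed by 0.04 ± 0.06 between aged impaired and young rats. The others varied far more. On 1375875_at the values were 8.15, 9.32 and 10.14 in aged impaired rats, 7.52, 9.01 and 9.19 in aged unimpaired rats, and 7.78, 9.16 and 9.36 in young rats. They fell into 6 low and 17 high rats with an empty span of 0.745 between them. The 6 low rats came from every group, aged impaired rat 2, aged unimpaired rats 2 and 6, and young rats 3, 5 and 6, and the same 6 were the lowest on 1382787_at. On that probe set the values were 5.22, 6.47 and 7.20 in aged impaired rats, 4.61, 5.69 and 6.32 in aged unimpaired rats, and 4.85, 5.88 and 6.43 in young rats. The differences between aged impaired and young rats, 0.50 ± 0.31 and 0.81 ± 0.30, did not pass (adjusted p = 0.311 and 0.0830, limma).

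**Figure D4:**
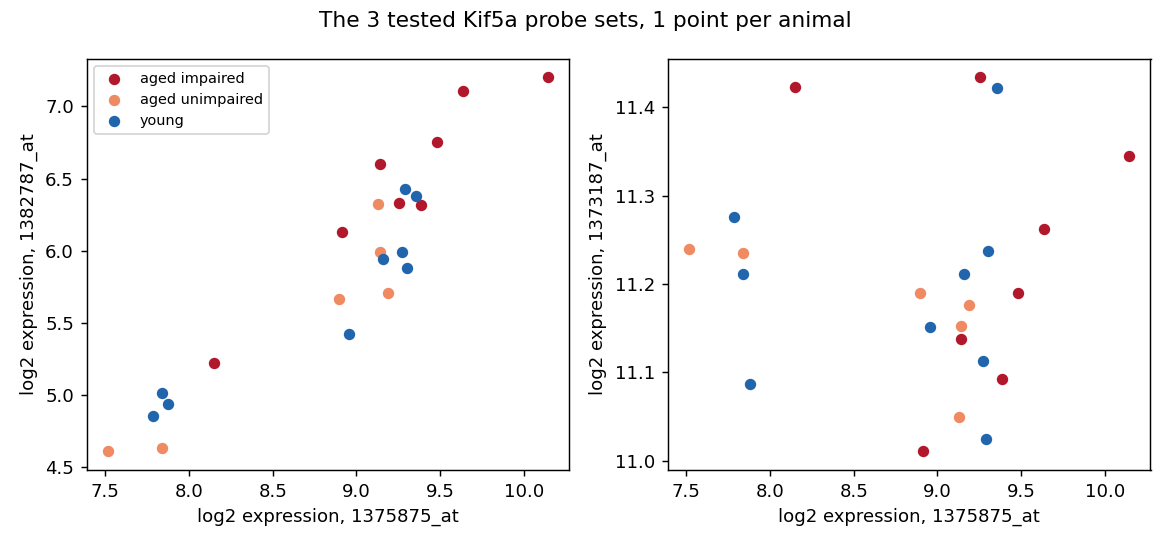
Log2 expression of the 3 tested Kif5a probe sets, 1 point per rat and both axes on the log2 scale, with the probe set 1382787_at (left) and 1373187_at (right) plotted against 1375875_at. The 6 rats at the low end of 1375875_at, drawn from all 3 groups, are also the lowest on 1382787_at, while they spread over the range of 1373187_at.

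Genes that work beside the motors were counted in the same fit, where 9.76% of all probe sets were called in aged impaired against young rats. Of 24 tested genes of motor adaptors and regulators with 34 probe sets, 1 was higher and 4 lower in aged impaired against young rats (14.7% called, median difference -0.03). Bicd2, an adaptor that switches dynein on, fell by 0.20 ± 0.04 (1.15-fold, adjusted p = 0.00499, limma). The dynactin subunits Actr1b and Actr10, whose names kept them out of the members, fell too, Actr1b by 0.15 ± 0.04 (adjusted p = 0.0170, limma), as did Rhot1, which encodes the Miro protein that TRAK adaptors bind. Spag9, a scaffold that binds kinesin-1 and dynactin, rose on the dim probe set 1394436_at by 0.72 ± 0.18 (1.65-fold, adjusted p = 0.0165, limma). Its means there were 5.87 in aged impaired and 5.15 in young rats. In aged unimpaired against young rats 2 probe sets of this list rose, of the dynein adaptor Hook1 by 0.33 ± 0.09 (adjusted p = 0.0428, limma) and of Spag9, on 1382020_at, by 0.26 ± 0.06 (adjusted p = 0.0186, limma). Neither Spag9 probe set was called in both comparisons.

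The tubulins, which form the track, gave 13 tested probe sets of 10 genes, of which 4 fell in aged impaired against young rats and none rose (30.8%, median difference -0.10). Tubb2b, a beta-tubulin abundant in growing neurons, fell by 0.35 ± 0.05 (1.28-fold, adjusted p = 0.000166, limma) with every aged impaired rat below every young rat. The neuronal beta-tubulin Tubb3 fell by 0.16 ± 0.04 (adjusted p = 0.00793, limma), Tuba4a by 0.16 ± 0.04 (adjusted p = 0.0120), and Tubb4b fell as well. In aged unimpaired against young rats Tubb2b alone of this list was called, falling by 0.23 ± 0.05 (adjusted p = 0.0199, limma).

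Among microtubule-associated proteins and tubulin enzymes, 2 of 54 tested probe sets were higher and 3 lower in aged impaired against young rats (9.26%, near the 9.76% over all probe sets tested, median -0.05). Both higher ones were of Map7, the protein that recruits kinesin-1 to microtubules, and rose by 0.36 ± 0.06 (1.28-fold, adjusted p = 0.000596, limma) and by 0.33 ± 0.07 (1.26-fold, adjusted p = 0.00387), with no overlap between the groups on either. Stmn2, a stathmin that binds free tubulin in growing axons, fell by 0.24 ± 0.04 on probe set 1370041_at (1.18-fold, adjusted p = 0.000789, limma). Its probe set 1370042_at was not called in this comparison. Map7d1 and the plus-end protein Mapre3 fell as well. In aged unimpaired against young rats Map7 rose by 0.29 ± 0.06 on 1 probe set (adjusted p = 0.0124, limma), 2 probe sets of Stmn2 fell, by 0.36 ± 0.06 (adjusted p = 0.00253) and 0.24 ± 0.04 (adjusted p = 0.00409), and Map7d2 fell.

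Of the myosins, the motors of actin filaments, 1 of 14 tested probe sets was higher and 2 lower in aged impaired against young rats (21.4%, median 0.08). Myo6, the myosin that walks toward the minus end of actin, rose by 0.27 ± 0.07 (1.21-fold, adjusted p = 0.0143, limma), Myo16 fell by 0.40 ± 0.11 (1.32-fold, adjusted p = 0.0188) and Myh10 fell by 0.13 ± 0.04 (1.09-fold, adjusted p = 0.0254). None of the 19 probe sets of intraflagellar transport, the ciliary traffic driven by kinesin-2 and dynein-2, was called in a comparison of 2 groups, and Bbs7 rose by 0.24 ± 0.07 in the average of the aged groups against young rats (adjusted p = 0.0393, limma). In aged impaired against aged unimpaired rats, limma called no probe set of these 5 lists, beside 0.778% over all probe sets tested. That share is so low that a count of 0 says little about the lists.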

How the data were processed

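The authors deposited log2 expression values from Affymetrix Rat Genome 230 2.0 arrays, computed with GCRMA per the submitters' processing notes; no version is stated in the sources used here. GCRMA normalizes between arrays and compresses dim probe sets onto a floor; the deposited arrays still differed in their medians, so centring and quantile normalization were run as alternatives. Arrays give no read depth, and their number limits the precision.

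From these log2 values, limma 3.58.1 in R 4.3.3 was fitted to 23 arrays with 1 mean per group and 20 residual degrees of freedom. The 57 control probe sets and those under a log2 value of 4 on more than 17 arrays were left out, and p-values were adjusted by Benjamini-Hochberg over 14647 probe sets. Symbols come from the platform's annotation; all 57 member symbols matched the GRCr8 RefSeq gene table. Probe sets with several symbols were no members. The fit was tested on simulated data.

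Every called member is named, with its other probe sets and the brightest of each role; of the other lists, called genes are named with values for the 3 of lowest adjusted p. Members and lists were chosen with earlier results of these data known. Same-numbered animals of different groups did not deviate together (20 pairs, r from -0.14 to 0.13), so numbers were not taken as pairs. The aged unimpaired numbers leave out 3 and 5, which were not analysed here.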

Additional observations from a re-analysis of the deposited data

Results flagged for a closer look

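Among the 14 called probe sets and 3 groups, 4 of 42 sets of values held 1 rat far from the rest of its group, where chance gives about 5%. Young rat 6 lay at 8.24 on Kif2a 1371125_at, with the next young rat at 8.44. Aged impaired rat 6 lay at 6.69 on Dynlt1, with the next at 7.20. Aged unimpaired rat 1 lay at 11.21 on Dync1i1, above the next at 11.07. Young rat 7 lay at 9.81 on Klc1 1388125_a_at, below the next at 10.29.

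The aged groups, both set against the same young rats, differed from each other by limma's test in 3 members, Trak1 by -0.27, Kif1a 1384133_at by 0.41 and Klc1 1388125_a_at by 0.48 (aged impaired minus aged unimpaired, log2).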

How the results depend on the processing

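In aged impaired against young rats, 8 to 12 members were called over 10 alternatives and 9 to 16 with 1 rat left out, 16 being without aged impaired rat 1. For the mean of both aged groups, the 10 members became 6 with no filter and 5 with the replicate block, and 7 to 13 with 1 rat left out. Between the aged groups, the 3 members became 0 with no filter, 0 with only the groups compared, 0 with the replicate block, 0 with 1 probe set per gene and 5 with array weights. They became 0 to 6 with 1 rat left out: 0 without any 1 of aged impaired rats 2, 3, 6, 7 and 8 or aged unimpaired rats 1, 4, 6 and 8, 5 without young rat 8, and 6 without aged unimpaired rat 7. In aged unimpaired against young rats, the 0 became 1 with quantile normalization, 5 with array weights, 1 with only the groups compared, and 0 to 1 with 1 rat left out. Of the within-gene calls between the aged groups, 2 of 5 passed with the replicate block, and 2 to 6 with 1 rat left out, 2 being without aged unimpaired rat 6. The 2 against young rats became 0 with the block and 0 to 2 with 1 rat left out, 0 without aged impaired rat 2 or young rat 8. Aged unimpaired against young gave 1 with array weights and 0 to 1 with 1 rat left out. The cause of these changes was not tested. Counts over all 14647 probe sets moved as well. For aged impaired against young, 1429 became 768 with no filter and 870 with the block. The mean of both aged groups went to 509 and 527 in these settings, against 1010. For aged unimpaired against young, 302 became 126 with no filter, 672 with array weights and 86 with the block. Between the aged groups, 114 became 0 to 222. No call of a member changed sign under the alternatives run.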
